A study of Mus musculus with 2 samples.

Results

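Rps18-ps4, a long non-coding RNA gene whose name calls it a pseudogene of ribosomal protein S18, and its parent gene Rps18 were followed through heart RNA of 2 mouse groups. The first group was transgenic FvB/N mice aged 12 weeks that carried cMyBP-C delta C0-C1f, a form of a thick-filament protein of heart muscle, cardiac myosin binding protein-C, that lacks its C0-C1f region. The second was non-transgenic FvB/N mice of the same age. Each group was 1 library from 3 pooled hearts, and the labels state neither the sex of the animals nor the promoter of the transgene. The study asked how messenger RNA levels in the transgenic heart differ from those in the non-transgenic heart. These 2 genes are 2 of the 25004 genes in the count tables, and Rps18-ps4 was chosen by its ratio of counts between the libraries, the largest of all genes, with Rps18 taken as its parent. Its ratio is therefore a description and not a finding. With 1 library per group there is no replicate check, no difference was tested, and every interval and floor covers counting error only. In bulk tissue, fewer cells of a type and less RNA per cell cannot be told apart.

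Rps18 encodes a protein of the small ribosomal subunit, where it sits in the head and touches the large subunit. Messenger RNAs of ribosomal protein genes are abundant in every tissue and have often been copied back into the genome by reverse transcription. The resulting retrocopies have no introns, usually lie far from the parent gene and are named as pseudogenes. Reads from a close retrocopy and from its parent can be hard to tell apart, and so can reads from a retrocopy and from a gene that runs through it on the opposite strand.

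The name of Rps18-ps4 went against its annotation. RefSeq types it as a lncRNA and GENCODE M21, on the GRCm38 build, as a lincRNA under the name Gm26619. It lies on chromosome 13 from 97751112 to 97760965 on the plus strand and has 3 exons of 41, 158 and 874 bases. Exon 3 runs through a separate single-exon retrocopy of Rps18 on the minus strand, Rps18-ps6, from 97760072 to 97760632. GENCODE calls this retrocopy Gm10260 and types it as protein-coding, whereas RefSeq types it as a pseudogene. The exons of Rps18-ps4 and Rps18-ps6 share 541 bases, and Rps18-ps6 itself has no row in the count tables. The parent Rps18 lies on chromosome 17 from 33951999 to 33956001 on the minus strand, and its main transcript has 5 exons and 560 bases.

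The coding sequence of Rps18 is present in Rps18-ps4 nearly whole, but reversed. Read on the opposite strand, bases 238 to 696 of the 1073-base transcript, at chr13:97760130-97760588, matched the 459-base coding sequence of Rps18 at 455 bases, or 99.1%. Counted from 1 at the A of the start codon, the 4 differences from Rps18 to the copy were T186C, A337C, G371A and G431A, and none of them made a stop codon within the reading frame. Rps18-ps6, on the minus strand, carries the same 4. The stretch of 260 bases that holds all 4 is shown from both genes because this match is what ties Rps18-ps4 to its parent. The sequences are those of GENCODE M21 transcripts on GRCm38, with the 4 differing bases in capitals. The first is from the minus strand of chromosome 17, and the second is the reverse complement of the Rps18-ps4 transcript, the minus strand of chr13:97760149-97760408.
Rps18 coding sequence, bases 181 to 440: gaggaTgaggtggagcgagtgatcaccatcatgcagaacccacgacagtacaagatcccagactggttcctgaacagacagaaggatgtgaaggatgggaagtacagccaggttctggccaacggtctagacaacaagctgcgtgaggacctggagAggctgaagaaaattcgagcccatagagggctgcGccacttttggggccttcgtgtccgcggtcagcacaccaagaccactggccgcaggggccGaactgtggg
Rps18-ps4 reverse complement, same bases: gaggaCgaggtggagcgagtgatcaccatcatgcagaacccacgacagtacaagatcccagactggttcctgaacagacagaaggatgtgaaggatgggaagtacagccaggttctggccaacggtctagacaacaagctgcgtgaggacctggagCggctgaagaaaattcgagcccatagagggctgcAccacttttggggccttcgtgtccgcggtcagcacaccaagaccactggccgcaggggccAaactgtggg
Exons 1 and 2 of Rps18-ps4, bases 1 to 199 of its transcript on the plus strand of chromosome 13, are shown as the part of the gene that holds no Rps18 sequence.
Rps18-ps4 exons 1 and 2: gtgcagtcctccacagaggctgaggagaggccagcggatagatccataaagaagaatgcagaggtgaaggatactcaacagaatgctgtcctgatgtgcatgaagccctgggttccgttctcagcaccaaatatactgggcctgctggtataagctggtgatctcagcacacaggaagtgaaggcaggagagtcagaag

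The longest run without a difference from Rps18 was 185 bases. Of the 1024 windows of 50 bases in the Rps18-ps4 transcript, 290, or 28.3%, were found base for base in the Rps18 messenger RNA on the opposite strand. These windows lay between bases 267 and 739. Transcripts of genes other than Rps18-ps4 and Rps18-ps6 held 324 of the windows on either strand, Rps18 included. The remaining 700, or 68.4%, occurred in no transcript of a gene other than these 2, among them all 150 windows within exons 1 and 2. Rps18-ps6 was left out of this search. Its exons share 541 bases with those of Rps18-ps4, so part of the 700 windows lies in Rps18-ps6 too. The count is given per transcript. It does not show whether the reads of Rps18-ps4 lay in a part shared with Rps18 or Rps18-ps6 or outside both. The read length is not given in the sources used here.

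**Figure D1:**
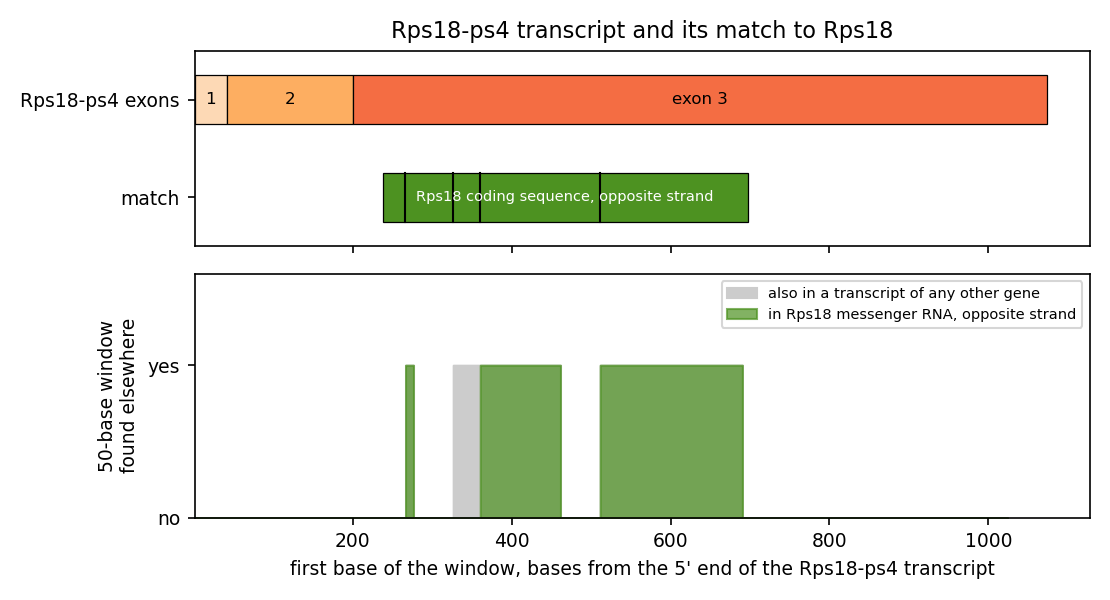
Top: the 3 exons of the Rps18-ps4 transcript (orange shades) and the stretch that matches the Rps18 coding sequence on the opposite strand (green), with the 4 differing bases as black lines. Bottom: for each 50-base window, by its first base from the 5' end of the transcript, whether it is also found elsewhere. Green marks the 290 windows found in the Rps18 messenger RNA on the opposite strand. Grey, partly under the green, marks the 324 windows in a transcript of any gene other than Rps18-ps4 and Rps18-ps6. All of these windows start within exon 3. Windows found only in Rps18-ps6, which was left out of the search, are not marked.

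The same Rps18 coding sequence was also found, in full or in part, in 4 further genes that the RefSeq table names as pseudogenes of Rps18. Rps18-ps5 on chromosome 13 matched it at 456 of 459 bases, with the differences T11A, A171C and A337C. Rps18-ps3 on chromosome 8 matched at 453 bases, and Rps18-ps1 on chromosome 4 at 451. Rps18-ps2, also on chromosome 4, from 8941259 to 8941656, had the fewest identical bases, 341, or 74.3% of the 459. It is shorter than the coding sequence, so this share counts missing bases as well as differing ones. None of these 4, nor Rps18-ps6, has a row in the count tables, so Rps18-ps4 is the 1 gene of the Rps18 pseudogene series that could have counts here, and it is the 1 gene of the series in which the match lies on the opposite strand of the annotated transcript.

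The libraries held 190824 counts in the transgenic and 170543 in the non-transgenic heart, and 7081 genes had a count in the transgenic and 6725 in the non-transgenic library. Rps18-ps4 had 688 counts in the transgenic library and 1 count in the non-transgenic library. It was thus among the more highly counted genes of the transgenic heart, at rank 37, and close to undetected in the non-transgenic heart. Its share of all counts was 0.361% in the transgenic library (95% Clopper-Pearson interval 0.334 to 0.388%) and 0.000586% in the non-transgenic library (1.48e-05 to 0.00327%). After scaling with TMM factors, which adjust library totals so that most genes have a ratio near 1, the ratio of transgenic to non-transgenic was 547 (counting interval 97.9 to 21637), a log2 ratio of 9.10. Per length, as counts scaled to the length of the transcript and the total of the library (RPKM), its level was 3360.1 RPKM in the transgenic and 5.46 RPKM in the non-transgenic library.

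The parent gene did not share this pattern. Rps18 had 5 counts in the transgenic library and 7 in the non-transgenic library. Its ratio was 0.568, with an interval of 0.142 to 2.08. This interval spans a ratio of 1, so no difference in Rps18 was detectable at this depth. Per length, Rps18 stood at 46.8 RPKM in the transgenic and 73.3 RPKM in the non-transgenic heart. Among 28 small-subunit genes with a usable transcript length, 10 had a higher RPKM than Rps18 in each library. The median was 18.6 RPKM in the transgenic and 9.10 RPKM in the non-transgenic library. Genes with 0 counts in both libraries are part of these medians and lower them. Of all 32 small-subunit genes, 14 had no count in either library. Each small-subunit gene with a count had 1 RefSeq transcript in the counts. The 14 without a count included genes with several, such as Rps19 with 9, and genes with 1, such as Rps12. Whether the number of transcripts bears on these counts of 0 was not tested. In the transgenic heart the count of Rps18-ps4 was 138 times that of its parent. Rps18 has its own opposite-strand neighbour, Vps52, a gene of a vesicle tethering complex on the plus strand of chromosome 17. The exons annotated for Rps18 share 156 bases with those of Vps52, but all of these lie outside its main transcript. Exon 1 of the main transcript reaches to 33955677, and Vps52 begins only at 33955812. Vps52 had 0 counts in both libraries. The floor of 3 counts that stands for a count of 0 corresponds to 15.7 CPM (counts scaled to the library total) in the transgenic and 17.6 CPM in the non-transgenic library. The kit keeps the strand of the RNA, but the strand setting of the counting is not given in the sources used here. Counts could therefore not be assigned with certainty to Rps18-ps4, to Rps18-ps6 on the other strand or to Rps18. Other opposite-strand pairs went both ways. In the transgenic and non-transgenic library, Dipk1a had 209 and 204 counts and Rpl5 opposite it 23 and 15. Tsix had 137 and 0 and Xist opposite it 20 and 0. Conversely, Trappc4 had 3 and 2 and Rps25 opposite it 57 and 56. Which strand the counts of Rps18-ps4 came from was not tested.

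**Figure D2:**
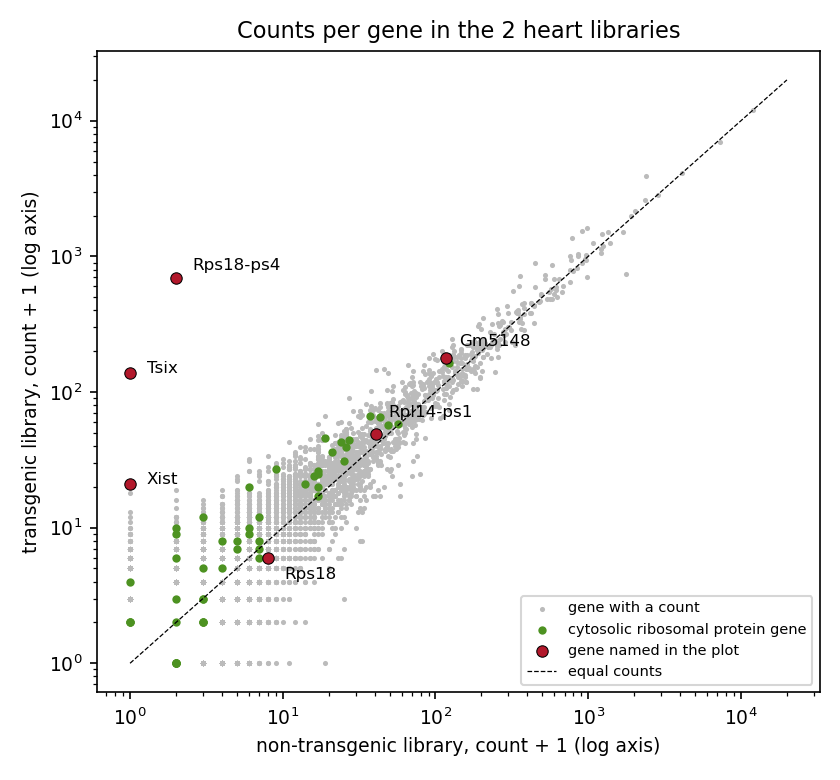
Each point is a gene with a count in either library, with its count plus 1 in the transgenic library on the vertical and in the non-transgenic library on the horizontal log axis. Rps18-ps4, with 688 counts in the transgenic and 1 in the non-transgenic library, stands far above the line of equal counts, whereas Rps18, with 5 in the transgenic and 7 in the non-transgenic library, lies beside it (green, cytosolic ribosomal protein genes and red, genes named in the plot).

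By the rule that chose it, Rps18-ps4 has the largest ratio of all genes. A ratio was given to the 4236 genes that had over 3 counts in at least 1 library. Of these, 105, or 2.48%, were at least 2-fold higher in the transgenic heart with an interval above 1, and 157, or 3.71%, were at least 2-fold lower with an interval below 1. The higher genes were thus 40.1% of all such genes, a share that was 58.6% when size factors of DESeq2 were used and 63.7% when libraries were scaled to their totals. Rps18-ps4 is among the 105 by the rule that chose it, and Rps18 is in neither set. The next largest ratio belonged to Tsix, a non-coding RNA transcribed opposite Xist on the X chromosome, with 137 counts in the transgenic library and 0 in the non-transgenic library. It was at least 29.1-fold higher by the lower end of its counting interval, and its ratio was 36.3 with the 0 replaced by a floor of 3 counts per library. Serping1, which encodes an inhibitor of complement, followed with 18 counts in the transgenic and 1 in the non-transgenic library and a ratio of 14.3 (counting interval 2.26 to 596). Among 327 genes with at least 100 counts in a library, the highest ratio after those of Rps18-ps4 and Tsix was 2.86 for Got1, an aminotransferase, and the lowest was 0.330 for Mhrt, a long non-coding RNA of the myosin heavy chain locus. The other 31 of 32 genes with 500 to 1000 counts in the transgenic library had between 323 and 1778 counts in the non-transgenic library, with a median of 618. Conversely, 1807 genes had exactly 1 count in the non-transgenic library, and apart from Rps18-ps4 the highest of them had 18 counts in the transgenic library.

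The genes whose pattern was most like that of Rps18-ps4, taken as the highest lower bounds of the counting interval over these 2 libraries, were Tsix, Xist, 2410017I17Rik, Serping1 and Apeh. Rps18-ps4 itself had a lower bound of 97.9, and Tsix had the highest of the other lower bounds, 29.1. Xist, the RNA that coats the inactive X chromosome of female cells, had 20 counts in the transgenic and 0 in the non-transgenic library. It was at least 3.93-fold higher by the lower end of its counting interval, with a ratio of 5.30 against the floor. The lncRNA gene 2410017I17Rik, on chromosome 17, had 17 counts in the transgenic and 0 in the non-transgenic library and was at least 3.28-fold higher by the same bound, with a ratio of 4.51 against the floor. Apeh, an acylpeptide hydrolase gene on chromosome 9, had 12 counts in the transgenic and 0 in the non-transgenic library and was at least 2.21-fold higher by that bound, with a ratio of 3.18 against the floor. Of 4 Y-linked genes, Ddx3y had 0 counts in the transgenic and 1 in the non-transgenic library, and Kdm5d, Eif2s3y and Uty had 0 in both. Xist and Tsix thus moved between the libraries in the same direction as Rps18-ps4, and since each group is 1 library, genotype, the sex of the pooled animals and any other difference between the libraries cannot be told apart. These 6 sex-linked genes were looked up after the values were seen.

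The RefSeq table names 321 ribosomal protein pseudogenes, of which 313 have no accession in the count tables. Beside Rps18-ps4, 7 do. In 6 of them, which could therefore show no difference, Rpl31-ps12, Rpl34-ps1, Rplp2-ps1, Rps15a-ps4, Rps15a-ps6 and Rps19-ps3, both libraries had 0 counts. The comparison thus rests on Rpl14-ps1, a processed pseudogene on chromosome 7 from 45324965 to 45325617 on the plus strand, with 48 counts in the transgenic and 40 in the non-transgenic library. Its ratio was 0.954 with a counting interval of 0.614 to 1.49, so its count did not differ beyond counting error. Rpl14-ps1 has 473 windows of 50 bases on the same strand as the messenger RNA of its parent Rpl14, a large-subunit gene, which had 7 counts in the transgenic and 6 in the non-transgenic library. No annotated exon of another gene overlapped it, although it lies between exons 6 and 7 of Trpm4, a cation channel gene on the opposite strand with 2 counts in each library. Both genes named as pseudogenes that had counts were thus counted more often than their parents in the transgenic library. Only Rpl14-ps1 was in the non-transgenic library too. Unlike Rpl14-ps1, Rps18-ps4 is typed as a lncRNA and matches its parent on the opposite strand, so the 2 genes are not built alike.

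The protein-coding ribosomal genes did not differ in a comparable way. Of 79 cytosolic ribosomal protein genes, 28 had no count in either library and 35 had enough counts for a ratio. Of these 35, 3 were at least 1.5-fold higher in the transgenic heart with an interval above 1, 0 were at least 1.5-fold lower with an interval below 1, and 32 passed neither limit, where 3.42% of all 4236 genes with a ratio were that much higher and 5.9% that much lower. Among the 3 was Rps15a, a small-subunit gene, with 19 counts in the transgenic and 5 in the non-transgenic library and a ratio of 3.02 (1.09 to 10.4). Also among them was Rplp1, a stalk protein of the large subunit, with 26 counts in the transgenic and 8 in the non-transgenic library and a ratio of 2.58 (1.14 to 6.60). Over the 35 genes the log2 ratio had a median of 0.31, and over all genes with a ratio it was 0.05. It was 0.27 over 16 small-subunit genes and 0.48 over 19 large-subunit genes.

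Summed over all 79 genes, ribosomal protein genes had 938 counts in the transgenic and 624 in the non-transgenic library, a ratio of 1.20 (counting interval 1.08 to 1.32). The 688 counts of Rps18-ps4 in the transgenic library were equal to 73.3% of that sum. The most counted was Rpl4 of the large subunit, with 162 counts in the transgenic and 122 in the non-transgenic library and a ratio of 1.06 (0.830 to 1.35). Also among the 6 most counted were Rps25, Rpl32, Rps3 and Rplp0, with 43 to 66 counts in the transgenic and 26 to 56 in the non-transgenic library. Their ratios lay between 0.809 for Rps25 and 1.46 for Rps3, and the intervals of Rpl4 and of these 4 spanned a ratio of 1. In the transgenic library the count of Rps18-ps4 was thus above that of every ribosomal protein gene. Per length, the highest ribosomal protein gene was Rpl32, at 568 RPKM in the transgenic and 544 RPKM in the non-transgenic library, whereas Rps18-ps4 was at 3360.1 RPKM in the transgenic and 5.46 RPKM in the non-transgenic library.

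**Figure D3:**
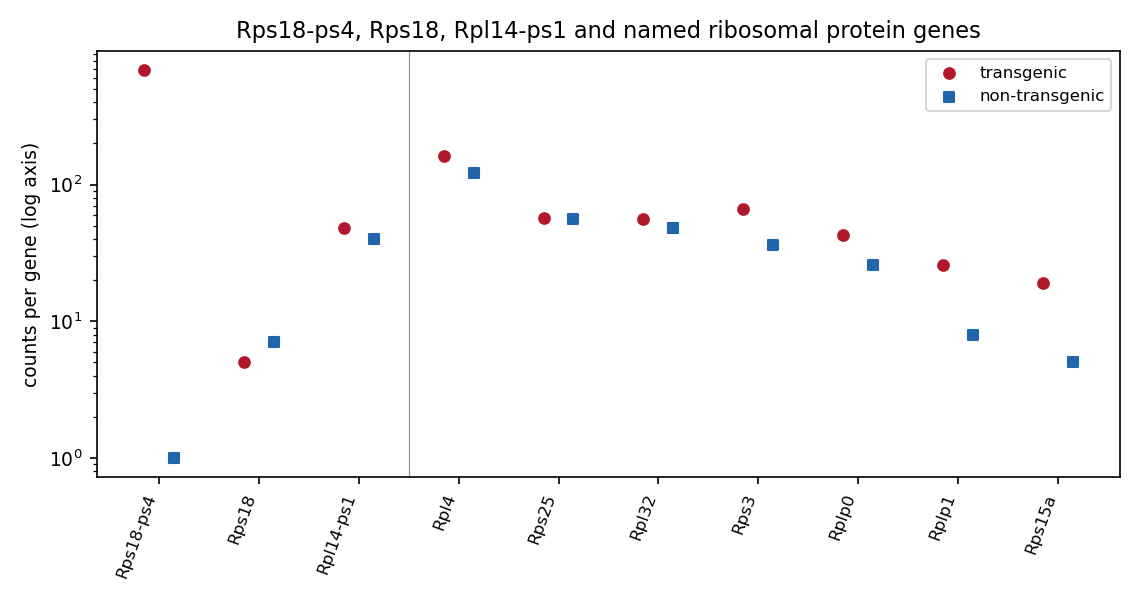
Counts on a log axis in the transgenic (red circles, left of each pair) and the non-transgenic library (blue squares) for Rps18-ps4, Rps18 and Rpl14-ps1, and, right of the grey line, for 7 ribosomal protein genes chosen from those named in the text. Rps18-ps4 has the highest value of all in the transgenic and the lowest in the non-transgenic library, while the pair of values of each other gene lies closer together.

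Genes with any stretch of ribosomal protein messenger RNA on their opposite strand were sought among 24277 genes with a transcript sequence. The search used 50-base windows of the messenger RNAs of all 79 ribosomal protein genes. Apart from genes that overlap the ribosomal protein gene itself, 41 genes had at least 1 such window, and Rps18-ps4 had 290. In the 40 others the counts summed to 468 in the transgenic and 335 in the non-transgenic library, and 23 had a count. Of these 40, 37 held at most 18 windows, all of them from Rps16, Rpl23, Rps20 or Rps15a. Such short matches do not show a copy of a coding sequence like that in Rps18-ps4. The sum over the 40 is therefore not one over genes built alike. Among the 37, Malat1, an abundant nuclear lncRNA with 2 windows, had 58 counts in the transgenic and 22 in the non-transgenic library. Intu, a gene of cilium formation with 2 windows, had 11 in the transgenic and 1 in the non-transgenic library. Only these 2 had a counting interval above 1, and the intervals of all others of the 37 with a ratio spanned 1. Eef2kmt, for example, had 142 counts in the transgenic and 120 in the non-transgenic library, and Xcr1 had 17 in the transgenic and 25 in the non-transgenic library. Among the 3 that held more than 18 windows were Gm5148 and Rps23rg1, singled out after their values were seen.

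Of these 40 genes, Gm5148 held the most windows. It is a 3-exon gene on chromosome 3 from 37714190 to 37724490 on the minus strand, its exons share 396 bases with Rps23-ps1, a retrocopy of the small-subunit gene Rps23 on the plus strand, and 377 of its windows match Rps23 on the opposite strand. It had 177 counts in the transgenic and 117 in the non-transgenic library, a ratio of 1.20 (counting interval 0.947 to 1.53), while the parent Rps23 had 0 counts in both. Rps23rg1, which runs through another Rps23 retrocopy, Rps23-ps2, had 0 counts in both libraries. Gm5148 was thus counted above its parent in both libraries, and Rps18-ps4 in the transgenic library alone.

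**Figure D4:**
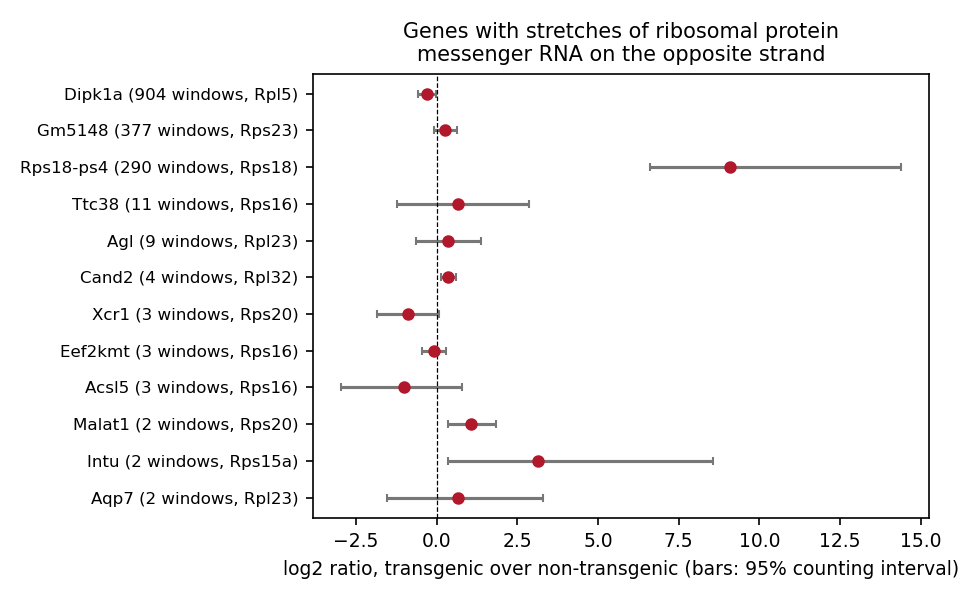
Log2 ratio of transgenic over non-transgenic counts with 95% counting intervals (bars) for the 12 genes with a ratio that hold 50-base windows of a ribosomal protein messenger RNA on their opposite strand, ordered from most windows at the top. Rps18-ps4 lies at 9.10 and Gm5148 at 0.27, and Dipk1a and Cand2 overlap the ribosomal protein genes Rpl5 and Rpl32 themselves.

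Among genes near either member, only H2-Ke6 had enough counts for a ratio. Within 100 kb of Rps18-ps4 the RefSeq table lists 3 other genes. Of these, 5330416C01Rik, a lncRNA gene that ends upstream of it, is in the count tables, and it had 0 counts in both libraries. Within 100 kb of Rps18, 21 of 29 genes are in the tables and 8 had a count, 21 counts in the transgenic and 17 in the non-transgenic library altogether. H2-Ke6, an enzyme gene of the same cluster, had 11 counts in the transgenic and 9 in the non-transgenic library, and its ratio was 0.972 (0.366 to 2.65). The other 7, Daxx, Zbtb22, Rgl2, Wdr46, B3galt4, AA388235 and Ring1, had at most 3 counts in either library, too few for a ratio.

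Markers of the tissue were checked with lists of defining genes. Of 10 cardiomyocyte markers, 7 had a count in the transgenic and 7 in the non-transgenic library, summing to 4.04% of counts in the transgenic and 2.69% in the non-transgenic library, but Myl3 and Tnnt2 were at 0 in both libraries, and Myh6 had 1 count in the transgenic and 0 in the non-transgenic library. The sum of the cardiomyocyte markers moved with Rps18-ps4, at a ratio of 1.34 (counting interval 1.29 to 1.39), and its part in the result was not tested. Liver and blood markers had 0 counts in both libraries. Skeletal muscle markers summed to 396 counts in the transgenic and 343 in the non-transgenic library, nearly all on Ckm, which the heart expresses too. The 4 fibroblast markers, all with a count in the transgenic library, summed to 21 counts in the transgenic and 32 in the non-transgenic library, at a ratio of 0.522 (counting interval 0.286 to 0.933). Their part in the result was not tested either. Endothelial markers summed to 64 counts in the transgenic and 62 in the non-transgenic library, with a ratio of 0.821 (0.570 to 1.18). Macrophage markers summed to 1 count in the transgenic and 4 in the non-transgenic library, and adipocyte markers to 1 in the transgenic and 0 in the non-transgenic library.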

How the data were processed

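RNA of transgenic and non-transgenic mouse hearts was measured in 1 library per group. Per the labels' protocols, poly-A RNA was made into stranded TruSeq libraries. The authors deposited whole-number counts for each RefSeq transcript accession. STAR, HTSeq and mm10 are named, per the submitters' processing notes. The strand setting, like the read length, annotation and tool versions, was not given in the sources used here. How reads that map to several places were treated is not given either, which bears on any gene with close copies.

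Of 41449 accessions, 41252 took a gene name from the RefSeq table and 99 took one from GENCODE M21, and counts were summed per gene. The 98 unnamed accessions, 1.66% and 1.81% of counts in the transgenic and non-transgenic library, were kept as rows. No sample column was left unused. Coordinates, strands, exons and sequences are those of GENCODE M21 on GRCm38, and transcript lengths for RPKM come from transcripts matched to accessions.

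Ratios are transgenic over non-transgenic counts scaled by TMM factors (1.06 and 0.943) from edgeR 4.0.16 in R 4.3.3, with exact 95% Clopper-Pearson intervals. No p-value was computed, since the groups have no replicates. A ratio needed over 3 counts in at least 1 library, and a count of 0 was replaced by 3 counts. The calculations were tested on simulated data. Rps18 coding sequences were aligned with edlib 1.3.9.post1, and tables were made with Python 3.11.15, numpy 2.4.6, scipy 1.17.1 and pandas 2.3.3. Named genes were both members, ribosomal protein pseudogenes with at least 4 counts, counted neighbours within 100 kb, the 6 most counted ribosomal protein genes and those 1.5-fold apart, and the 5 genes most like Rps18-ps4. Some genes that this rule names are not reported here. Members and lists were chosen with earlier results of these data known. Other scalings tried were size factors from DESeq2 1.42.0, total counts alone and upper-quartile factors, beside TMM factors without Rps18-ps4, counts per accession, other filters on low counts and sums over related genes.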

Additional observations from a re-analysis of the deposited data

How the results depend on the processing

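The ratio of Rps18-ps4 stayed between 535 and 615, and that of Rps18 between 0.556 and 0.638, under every scaling, unit and filter tried. Of 40 values under 8 alternatives, 36 stayed within their interval or within 1.5 times the count as it stood with TMM. Part of these 36 could not have moved, since a filter on low counts leaves the ratio of a single gene as it is. The interval of Rps18-ps4 is also far wider than the differences between scalings. Summed with Rps18, the ratio of Rps18-ps4 was 68.9 (counting interval 34.8 to 160), since the sum in the non-transgenic library is then 8 counts. With total counts alone, 167 genes were at least 2-fold higher and 95 lower, against 105 and 157 with TMM, and the ratio of the summed ribosomal protein genes was 1.34. The share of higher among all calls was 40.1% with TMM, 58.6% with DESeq2 size factors (157 higher and 111 lower) and 63.7% with total counts, and DESeq2 size factors and total counts moved the median over all genes, on the log2 scale, by 0.11 and 0.17. The ratio of Rpl14-ps1 crossed 1 under these scalings, at 1.03 and 1.07. The sum with the opposite-strand gene was not run because Rps18-ps6 has no row, and naming by gene description was not run because the tables used hold no descriptions. No paired analysis was possible because each group has 1 library. Depth limits Rps18, with 5 counts in the transgenic and 7 in the non-transgenic library, and Rps18-ps4, whose interval rests on 1 count in the non-transgenic library.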
